A study of Mus musculus with 12 samples.

Results

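Bexarotene and MSU-42011 are agonists of the retinoid X receptor (RXR), a nuclear receptor that binds DNA with partners such as the retinoic acid, liver X and peroxisome proliferator-activated receptors and changes transcription of nearby genes. The 9 genes described here were chosen by their readout: in 8 of them (Dpp10, Adgrg2, Tnfaip6, Dmxl2, Dagla, Tmem51, Gm12872 and Rbm3os) all 4 bexarotene tumors lay above or below all 4 control tumors, and Rbm3 was added because it is the sense partner of Rbm3os. Of the 314 tested genes that separate the groups in this way, these 8 were taken as a non-stromal set. They are 9 of the 54532 genes in the deposited count table, and all 9 passed the filter on low counts that left 15504 genes for testing. Tnfaip6 and Rbm3os reached the filter's level of 0.517 CPM (counts scaled to a common library size) in 0 of 4 control tumors, so they passed only through tumors of treated mice, in which they were higher.

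The samples were 12 mammary tumors of MMTV-Neu mice, in which the mouse mammary tumor virus promoter drives the Neu (Erbb2) oncogene in mammary epithelium, so every group carried the same transgene. Female mice with established tumors received powdered control diet with the oil and ethanol vehicle, or the same chow with MSU-42011 or bexarotene at 100 mg per kg of diet, for 10 days. Each group held 4 tumors, and the labels give no age. Poly(A) RNA was sequenced, and the counts per tumor summed to between 16583413 and 25925027. Each library is one piece of a whole tumor, and in such bulk RNA fewer cells of a type and less RNA per cell cannot be told apart.

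Levels of a gene are given as normalized CPM, with library sizes scaled by TMM, which compare tumors but not genes. FPKM, which also divides by a gene length, is used where genes are compared. The length implied by the deposited FPKM was below the exonic bases of some genes (5178 of 15784 for Dpp10, 5154 of 13285 for Dmxl2). A log2 fold change comes from edgeR's quasi-likelihood fit of all 3 groups, with its standard error (SE).

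Of the 15504 genes tested, 314 (2.03%) had no overlap between bexarotene and control tumors, 176 (1.14%) of them higher and 138 (0.89%) lower with bexarotene. With 4 tumors against 4, shuffled labels would separate a gene without ties with a probability of 0.0286. The 2.03% is not above that, nor are the 1.97% for MSU-42011 against control and the 1.17% for MSU-42011 against bexarotene. The 8 separating genes are a selected few of the 314, and by edgeR p in this contrast they ranked between 1 and 14 of all genes tested. Since the rule used this contrast, their differences in it are given without a test. By edgeR's quasi-likelihood test with Benjamini-Hochberg adjustment, 0 genes (0%) passed an adjusted p of 0.05 for bexarotene against control, where the smallest adjusted p was 0.762 and 998 genes had an unadjusted p under 0.05. DESeq2 called 6 genes (0.0387%) on the same table, among them Dpp10 (adjusted p = 0.0224) and Gm12872 (adjusted p = 0.0151). Both were selected on these tumors, so the calls are no further evidence for them.

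The separation differed in width between the genes. Ranked among the 314 by the log2 gap between the nearest bexarotene and control tumors, Dpp10 stood at 2, Tnfaip6 at 7, Rbm3os at 10, Adgrg2 at 13, Dagla at 18, Gm12872 at 57, Tmem51 at 69 and Dmxl2 at 184. The genes just inside the rule were Gm45902, whose highest control tumor was at 2.566 and lowest bexarotene tumor at 2.567 normalized CPM, and Abca7, at 17.67 and 17.68. Just outside it were Flot2, whose lowest control tumor and highest bexarotene tumor were both at 93.08, and Nr4a2, whose highest control tumor at 8.723 passed its lowest bexarotene tumor at 8.718.

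Promoter sequences were available for 6 of the 9 genes, and the bases before the RefSeq start (build GRCm38.p6) are printed for the 4 with the widest gaps, since RXR partners act on DNA near genes. Each is written 5′ to 3′ on the gene's own strand, and capitals mark every searched motif, on either strand, that lies wholly within the stretch. The Rbm3os stretch lies inside the first intron of Rbm3. The Tnfaip6 stretch stops where the longer gene model of the deposited table begins, 104 bases before the RefSeq start.
Dpp10 (chr1:124045560-124045809, reverse strand): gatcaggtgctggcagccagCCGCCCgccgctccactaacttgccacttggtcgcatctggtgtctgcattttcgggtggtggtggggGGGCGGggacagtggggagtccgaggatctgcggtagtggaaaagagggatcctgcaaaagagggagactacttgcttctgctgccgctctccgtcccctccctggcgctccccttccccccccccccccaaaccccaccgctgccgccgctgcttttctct
Tnfaip6 (chr2:52037863-52038008, forward strand): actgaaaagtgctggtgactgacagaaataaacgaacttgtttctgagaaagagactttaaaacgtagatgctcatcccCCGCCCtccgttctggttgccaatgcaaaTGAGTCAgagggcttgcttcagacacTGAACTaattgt
Rbm3os (chrX:8145177-8145426, forward strand): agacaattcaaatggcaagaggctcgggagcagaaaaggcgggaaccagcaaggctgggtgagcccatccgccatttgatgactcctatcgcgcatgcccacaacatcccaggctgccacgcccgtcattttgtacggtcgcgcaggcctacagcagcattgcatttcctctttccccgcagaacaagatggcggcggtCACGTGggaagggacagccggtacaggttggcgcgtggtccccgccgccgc
Adgrg2 (chrX:160390440-160390689, forward strand): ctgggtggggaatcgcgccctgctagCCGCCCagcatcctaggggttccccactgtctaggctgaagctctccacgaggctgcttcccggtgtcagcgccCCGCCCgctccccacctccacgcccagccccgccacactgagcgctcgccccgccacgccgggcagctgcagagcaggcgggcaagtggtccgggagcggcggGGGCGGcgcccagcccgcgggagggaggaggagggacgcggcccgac

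The search covered 250 bases before to 50 after the start, on both strands, in the 6 genes and in all 32851 RefSeq promoters of the same length. The nuclear receptor hexamer AGGTCA, its variant GGGTCA, the variant AGTTCA or the further variant GGTTCA occurred in 43.7% of all promoters and in 1 of the 6, Tnfaip6. There AGTTCA lies on the opposite strand and is read as TGAACT in the printed stretch, and AGGTCA lies nearer the start, beyond the bases shown. Direct repeats of these hexamers with 1 to 5 bases between them, from DR1 (0.222% of all promoters) to DR5 (0.0974%), matched in 0 of the 6. The GC box GGGCGG, read as CCGCCC on the opposite strand, was in all 6 and in 35.7% of all promoters. The bases G and C made up 47% of the Tnfaip6 promoter and from 62.7% (Rbm3os) to 80.7% (Dmxl2) of the rest, against a median of 52.7% over all promoters. The part of base composition in the GC box matches was not tested. In Rbm3os it spans the start, so the printed stretch holds only part of it and leaves it unmarked. The Tnfaip6 promoter also held the AP-1 site TGACTCA (5.2% of all promoters), read as TGAGTCA in the stretch, and the Rbm3os promoter held the E-box CACGTG (7.15%), which reads the same on both strands. TATAAA (13.6%) and the cAMP response element TGACGTCA (1.79%) matched in none of the 6. A match gives only the presence of these letters.

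**Figure D1:**
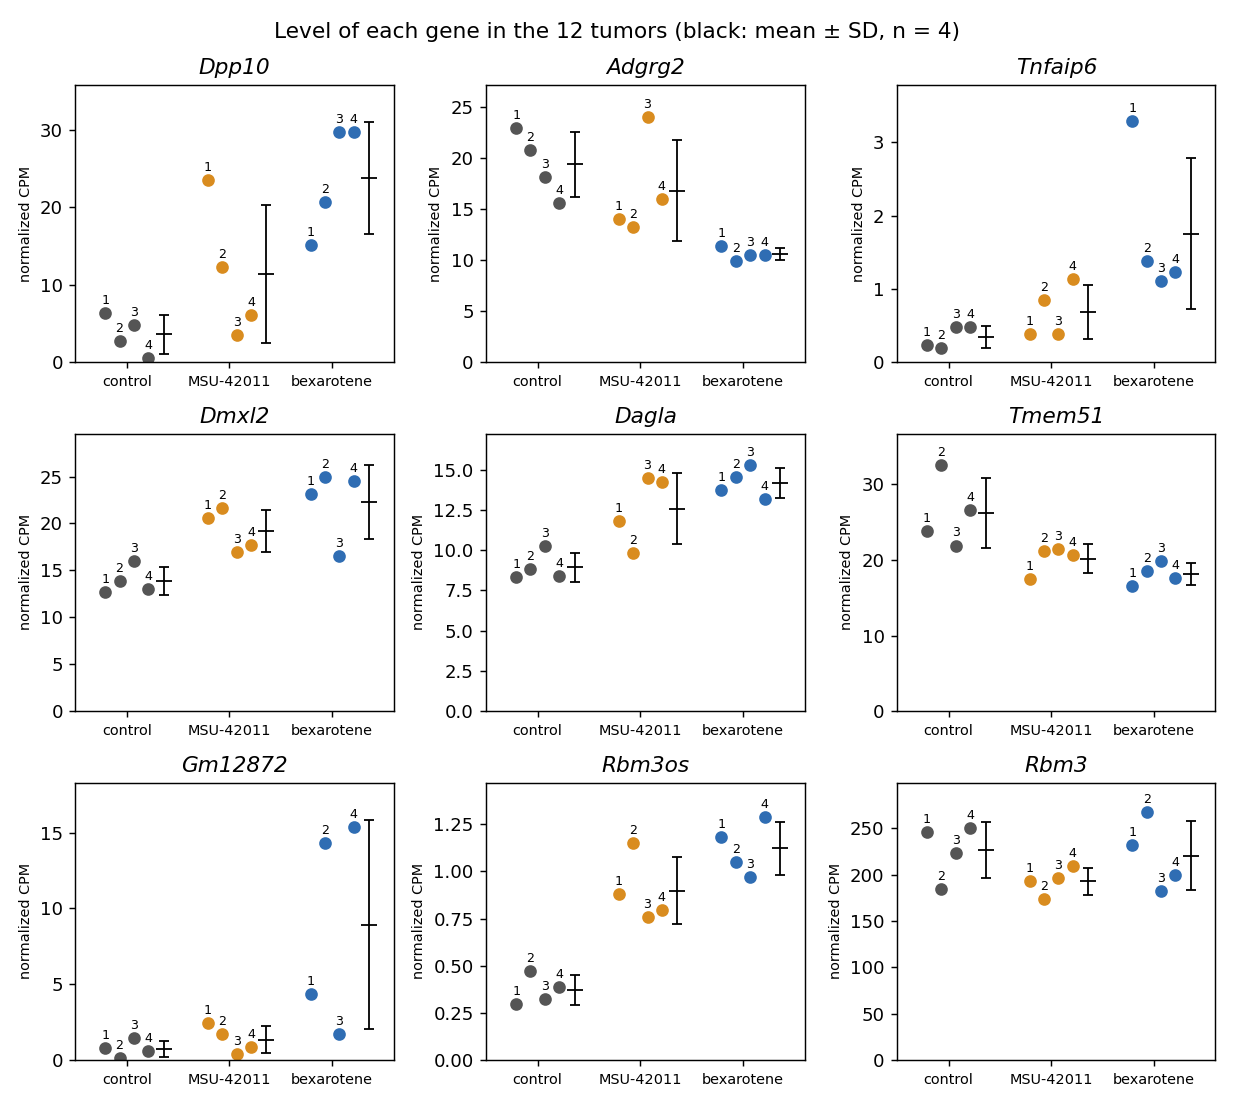
Normalized CPM (vertical axes, from 0) of each of the 9 genes in the 4 control, 4 MSU-42011 and 4 bexarotene tumors, with replicate numbers over the points and the mean ± SD (n = 4) in black. The 8 genes chosen for it show no overlap between control and bexarotene, while Rbm3 in the last panel overlaps in all 3 groups.

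Dpp10 encodes a member of the dipeptidyl peptidase family that lacks enzyme activity and serves as an auxiliary subunit of Kv4 potassium channels (chr1:123321471-124045559, reverse strand, GRCm38). In control tumors 1 to 4 it was at 6.35, 2.75, 4.76 and 0.560 normalized CPM. With bexarotene the values were 15.1, 20.7, 29.8 and 29.7. With MSU-42011 they were 23.6, 12.3, 3.52 and 6.08. All bexarotene tumors were high, and the MSU-42011 tumors spread from within the control range to within the bexarotene range. The log2 fold change was 2.73 (SE 0.68) for bexarotene and 1.67 (SE 0.66) for MSU-42011 against the same controls. Its mean was 0.685 FPKM in control and 4.59 in bexarotene tumors. Within its span lie 10 annotated genes that share no exonic bases with it.

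Of 15 other genes of the Kv4 channel complex and the DPP4 family, 9 were tested. Their median log2 fold change with bexarotene was 0.26, beside 0.03 over all genes. None had an unadjusted edgeR p under 0.05, against 4.48% of all genes higher and 1.96% lower. Fap, a fibroblast-associated serine protease, was at 1.88 (SE 0.93) and Dpp8, a cytosolic peptidase, at -0.10 (SE 0.14). Without bexarotene replicate 1 the median was -0.09.

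Tnfaip6 encodes TSG-6, a secreted protein that binds hyaluronan and transfers heavy chains of inter-alpha-inhibitor onto it (chr2:52038009-52056686, forward strand). Control tumors held 0.237, 0.189, 0.481 and 0.474 normalized CPM, from 28 counts in all. Bexarotene tumors held 3.28, 1.38, 1.11 and 1.23, from 161 counts. MSU-42011 tumors held 0.385, 0.848, 0.379 and 1.13. Bexarotene replicate 1 was far above the other tumors, and 1 MSU-42011 tumor lay inside the bexarotene range. On the log2 scale the fold change was 2.32 (SE 0.53) with bexarotene and 0.98 (SE 0.54) with MSU-42011. Without bexarotene replicate 1 the ratio of the means went from 5.07 to 3.59.

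That tumor stood apart in its markers. The summed level of 12 fibroblast markers was 11904 normalized CPM in bexarotene replicate 1, against 111.87 to 516.37 in control and 191.15 to 541.79 in MSU-42011 tumors. Bexarotene replicate 2, at 977.85, was also above every control and MSU-42011 tumor. Bexarotene replicates 3 and 4 were at 245.4 and 170.8. Its 10 macrophage markers summed to 1625 (control 186.33 to 483.2), its 9 endothelial markers to 571 (control 105.29 to 203.18), and its smooth muscle and pericyte markers to 648 (control 108.56 to 248.45). Adipocyte markers summed to 103 (control 12.925 to 36.371) and skeletal muscle markers to 251, where control replicate 1 was also high at 121. Its 9 luminal epithelial markers, at 3338.3, were the lowest of all 12 tumors. Over the bexarotene group 9 of the 12 fibroblast markers were higher at an unadjusted edgeR p under 0.05, against 4.48% of all genes, with a median log2 fold change of 3.67, and without replicate 1 the count was 0 and the median 0.90. No fibroblast, macrophage or endothelial marker was at 0 throughout a group. Tnfaip6 was the only gene of the 9 with its highest value of all 12 tumors in this library, Tmem51 had its lowest there, and a fibroblast origin of its reads was not tested. Calling Tnfaip6 non-stromal therefore has no direct check in these data. Without this tumor the ratios of bexarotene to control means changed from 6.61 to 7.42 for Dpp10, 12.5 to 14.6 for Gm12872, 3.03 to 2.98 for Rbm3os, 1.60 to 1.58 for Dmxl2, 1.59 to 1.60 for Dagla, 0.546 to 0.532 for Adgrg2 and 0.692 to 0.713 for Tmem51.

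**Figure D2:**
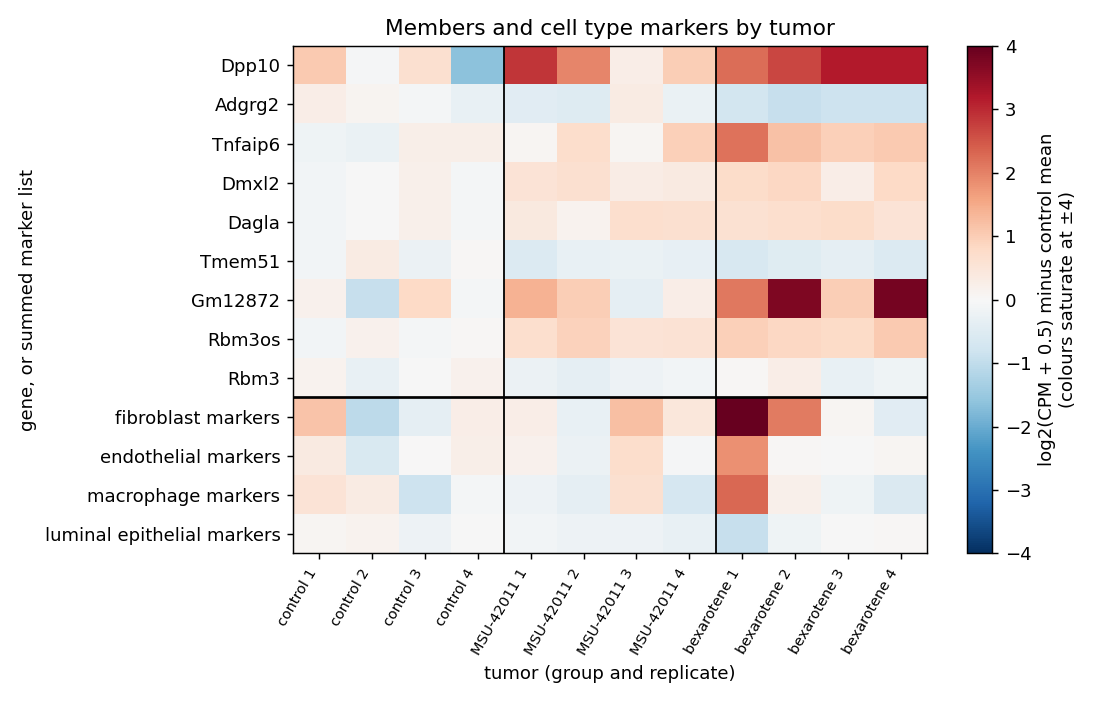
Colour map of log2(CPM + 0.5) minus the control mean for the 9 genes (upper rows) and the summed markers of 4 cell types (lower rows) in each of the 12 tumors. Bexarotene replicate 1 stands out in the fibroblast, endothelial and macrophage rows, and among the genes in Tnfaip6.

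Of 28 other genes of hyaluronan synthesis, binding and breakdown, 16 were tested, with a median log2 fold change of 0.21 with bexarotene. Those higher at an unadjusted edgeR p under 0.05 were 3, against 4.48% of all genes: Itih5, an inter-alpha-inhibitor heavy chain (3.14, SE 0.97), Cemip, a hyaluronan-degrading factor (3.22, SE 1.02), and Vcan, the proteoglycan versican (1.62, SE 0.72). None passed after adjustment over all genes, and without bexarotene replicate 1 the count was 0. None was lower, against 1.96% of all genes.

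Gm12872 is annotated as an unprocessed pseudogene of 3 exons, 320 exonic bases in all (chr4:122730284-122734733, reverse strand). Its levels were 0.771, 0.0947, 1.44 and 0.560 normalized CPM in control tumors, from 2 to 27 counts. Bexarotene tumors were at 4.35, 14.3, 1.70 and 15.4. MSU-42011 tumors were at 2.42, 1.70, 0.379 and 0.838. Bexarotene replicates 2 and 4 were far above all others, and bexarotene replicate 3 was only just above the highest control. The log2 fold change of 3.64 (SE 0.85) was the largest of the 9 and had the widest error, and that for MSU-42011 was 0.89 (SE 0.82). By FPKM, which weighs its short length, the bexarotene mean of 27.5 exceeded that of every other gene of the 9 but Rbm3 (159).

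Gm12872 has relatives on the same chromosome. Of the 9 similar genes found there by BLAST, 2 had a read, and only Gm12876, also an unprocessed pseudogene (chr4:122660923-122677278, reverse strand), had more than 1. The first exon of Gm12872 (chr4:122734601-122734733) is printed above the matching bases of the Gm12876 transcript, with bases that differ in capitals, to show how far reads can tell the pair apart.
Gm12872: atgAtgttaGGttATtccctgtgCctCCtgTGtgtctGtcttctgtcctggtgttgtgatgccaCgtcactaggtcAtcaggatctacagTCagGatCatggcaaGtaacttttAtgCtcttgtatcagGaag
Gm12876: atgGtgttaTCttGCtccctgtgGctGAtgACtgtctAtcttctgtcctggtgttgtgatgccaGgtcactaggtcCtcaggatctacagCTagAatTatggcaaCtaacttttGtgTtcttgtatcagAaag

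Over the whole alignment 251 of 308 bases (81.5%) were identical, and the longest identical run was 28 bases. Gm12876, with 46 counts in all, was too low to be tested. It had 0, 0, 1 and 0 counts in control tumors, 2, 5, 1 and 0 with MSU-42011, and 5, 13, 3 and 16 with bexarotene. Its bexarotene tumors lay above its control tumors, with 3 counts in bexarotene replicate 3 against 1 in control replicate 3. Counts this low are near the floor, and 1.14% of the genes tested lay higher in the same way, so this is a description. Its most covered tumors were, as for Gm12872, bexarotene replicates 2 and 4. Assignment of reads between the pair was not tested.

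Dagla encodes diacylglycerol lipase alpha, which makes the endocannabinoid 2-arachidonoylglycerol (chr19:10245265-10304877, reverse strand). Control tumors were at 8.31, 8.81, 10.3 and 8.40 normalized CPM. Bexarotene tumors were at 13.7, 14.5, 15.3 and 13.2. MSU-42011 tumors were at 11.8, 9.82, 14.5 and 14.2. Every bexarotene tumor was above every control, and only MSU-42011 replicate 2 fell within the control range. Its log2 fold change was 0.67 (SE 0.16) with bexarotene and 0.49 (SE 0.16) with MSU-42011. Of 16 other genes of endocannabinoid metabolism and its receptors, 15 were tested, with a median of 0.15 with bexarotene and 0.01 with MSU-42011. None was at an unadjusted edgeR p under 0.05. With bexarotene 4.48% of all genes were higher and 1.96% lower at that level. Daglb, the related lipase, was at 0.38 (SE 0.24), and Fabp5, a carrier of fatty acids and endocannabinoids, at 0.99 (SE 0.50). Without bexarotene replicate 1, Fabp5 alone of the 15 had an unadjusted edgeR p under 0.05, at 1.23, against 1.6% of all genes higher. It did not pass after adjustment over all genes.

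Dmxl2 encodes rabconnectin-3 alpha, a WD-repeat protein that takes part in assembly of the vacuolar proton pump (chr9:54365158-54501626, reverse strand). It was at 12.7, 13.8, 16.0 and 13.1 normalized CPM in control tumors. In bexarotene tumors it was at 23.1, 24.9, 16.6 and 24.5. In MSU-42011 tumors it was at 20.6, 21.6, 17.0 and 17.7. Both treated groups lay wholly above control, narrowly so, since bexarotene replicate 3 was close to control replicate 3. Its log2 fold change was 0.68 (SE 0.16) with bexarotene and 0.47 (SE 0.16) with MSU-42011. Of 26 tested genes of the rabconnectin and vacuolar ATPase list, 11 were above 0 with a median of -0.04. None had an unadjusted edgeR p under 0.05, against 4.48% of all genes higher and 1.96% lower. The lowest p of the list belonged to Atp6v1e1, a stalk subunit of the pump, at -0.29 (SE 0.15).

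Adgrg2, an adhesion G protein-coupled receptor best known from the male reproductive tract (chrX:160390690-160498070, forward strand), was lower with bexarotene. Control tumors were at 22.9, 20.8, 18.1 and 15.6 normalized CPM. Bexarotene tumors were at 11.4, 9.87, 10.5 and 10.5. MSU-42011 tumors were at 14.0, 13.2, 23.9 and 15.9. The bexarotene tumors lay close together, and every MSU-42011 tumor was above all of them. Against control the log2 fold change was -0.87 (SE 0.20) with bexarotene and -0.21 (SE 0.20) with MSU-42011. An antisense gene, Gm15241, shares 137 exonic bases with it and had 19 counts in all tumors.

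Of 29 other adhesion receptors, 17 were tested and had a median log2 fold change of 0.06 with bexarotene. None was lower at an unadjusted edgeR p under 0.05, and 4 were higher, against 4.48% of all genes: Adgrd1 (5.32, SE 1.49), Adgra2, a co-receptor for Wnt ligands in vessels (1.95, SE 0.80), Adgre5, the leukocyte antigen CD97 (0.91, SE 0.40), and Adgrl1, the receptor latrophilin (0.74, SE 0.25). Without bexarotene replicate 1, Adgrd1 (2.24) and Adgrl1 (0.62) were still at that level, against 1.6% of all genes. None passed after adjustment over all genes.

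Tmem51, a transmembrane protein whose function is little described (chr4:142030992-142084304, reverse strand), was also lower. Control tumors were at 23.8, 32.6, 21.9 and 26.6 normalized CPM. Bexarotene tumors were at 16.5, 18.6, 19.9 and 17.6. MSU-42011 tumors were at 17.4, 21.2, 21.5 and 20.7. Both treated groups lay wholly below control, although MSU-42011 replicate 3 was close to the lowest control tumor. Its log2 fold change was -0.53 (SE 0.14) with bexarotene and -0.38 (SE 0.14) with MSU-42011. Its antisense gene Tmem51os1 shares 243 exonic bases and had a log2 fold change of -0.48 at an unadjusted edgeR p of 0.0841. Whether the counting used strand is not given in the sources used here, and without strand reads in these 243 of the 1875 exonic bases of Tmem51 cannot be told apart.

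Rbm3 and Rbm3os form a sense and antisense pair on the X chromosome. Rbm3 encodes a cold-inducible RNA-binding protein (chrX:8138975-8145880, reverse strand), and Rbm3os is an antisense RNA that starts within its first intron and runs away from it (chrX:8145429-8147964, forward strand). Of the 971 exonic bases of Rbm3os, 668 lie outside Rbm3, 209 in its introns only and 94 in its exons. Without strand in the counting, reads from the Rbm3 introns and from Rbm3os cannot be told apart in those 209 bases.

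Rbm3os was at 0.297, 0.473, 0.321 and 0.388 normalized CPM in control tumors, from 5 to 10 counts each. With bexarotene it was at 1.18, 1.05, 0.969 and 1.29, from 20 to 32 counts. With MSU-42011 it was at 0.880, 1.15, 0.758 and 0.796, from 14 to 19 counts. Both treated groups lay wholly above control and overlapped each other. The log2 fold change was 1.58 (SE 0.31) with bexarotene and 1.25 (SE 0.31) with MSU-42011. The whole control group held 30 counts of it.

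Rbm3 was not chosen for its own values and so was tested. Control tumors were at 246, 184, 223 and 250 normalized CPM, bexarotene tumors at 232, 267, 183 and 200, and MSU-42011 tumors at 193, 174, 197 and 209. The 3 groups overlapped. Its log2 fold change with bexarotene was -0.04 (SE 0.14, 95% interval -0.34 to 0.26, edgeR adjusted p = 0.976), and an exact two-sided permutation test of the normalized CPM gave p = 0.8286. With MSU-42011 it was -0.23 (SE 0.14, 95% interval -0.53 to 0.07). The smallest p that 4 tumors against 4 allow in the exact permutation test is 0.0286.

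Rbm3 outnumbered Rbm3os in every tumor. Rbm3os was chosen for its level in the bexarotene and control tumors, so its share of the pair's reads follows from that choice and is given as a description. Of the summed counts it made up 0.169% ± 0.060 (SD, n = 4) in control, 0.469% ± 0.131 in MSU-42011 and 0.517% ± 0.102 in bexarotene tumors. The highest control tumor was at 0.256% (95% Wilson interval 0.139 to 0.471, counting error only). The lowest treated tumors were at 0.380% (0.243 to 0.592) with MSU-42011 and 0.391% (0.258 to 0.591) with bexarotene, and the intervals of these single tumors overlapped. Of 21 other cold-shock and heat-shock genes tested, the median log2 fold change with bexarotene was -0.05. None had an unadjusted edgeR p under 0.05, against 4.48% of all genes higher and 1.96% lower. Hspa1b, an inducible heat-shock chaperone, was lower in all 4 bexarotene tumors than in any control (-0.42, SE 0.20), as were 0.89% of all genes. The gap was narrow, from 60.8 normalized CPM in the lowest control to 60.1 in the highest bexarotene tumor.

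**Figure D3:**
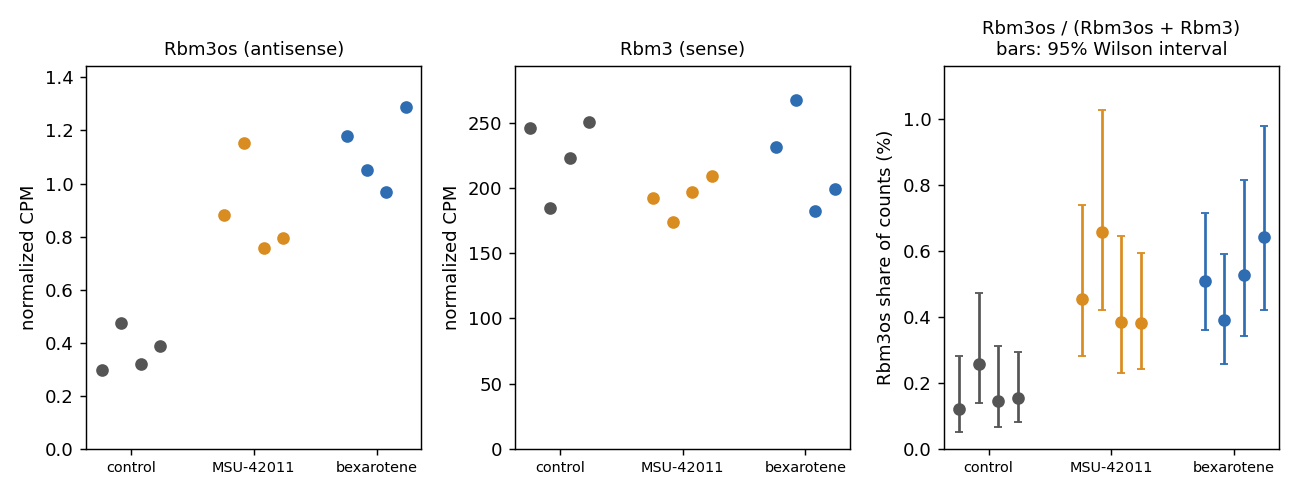
Normalized CPM of Rbm3os (left) and Rbm3 (middle), and the share of Rbm3os in the counts of the pair in percent with 95% Wilson intervals (right), for the 4 tumors of each group. Control tumors are lowest for Rbm3os and for the share, between 0.120% and 0.256%, while Rbm3 overlaps between groups.

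MSU-42011 was set against the same control tumors that the rule used, so a gene low in those controls can appear higher with either diet, and the values of both diets are given side by side without reading a shared direction from them. For MSU-42011 against control, 305 genes (1.97%) did not overlap, and 3 of the 8 chosen genes were among them: Dmxl2, Tmem51 and Rbm3os. By edgeR 0 genes (0%) were called, with a smallest adjusted p of 1, while 309 genes had an unadjusted p under 0.05 (1.14% of genes higher and 0.851% lower) and DESeq2 called 1. Counted by tumor, all 4 MSU-42011 tumors lay on the bexarotene side of the midpoint between the log2 group means for Tmem51 and Rbm3os, 3 for Dmxl2 and Dagla, 2 for Dpp10, Adgrg2 and Tnfaip6, and 1 for Gm12872.

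Set directly against bexarotene, MSU-42011 differed without overlap in 181 genes (1.17%), of which Adgrg2 was the only one of the 8. Its log2 difference, MSU-42011 minus bexarotene, was 0.67 (95% interval 0.24 to 1.095). For Gm12872 it was -2.74 (-4.51 to -0.98), for Tnfaip6 -1.34 (-2.43 to -0.25), and for Dpp10 -1.07 (-2.45 to 0.31), with overlapping tumors in each. For Tnfaip6, where bexarotene replicate 1 was far above the other tumors, it ran from -1.70 to -0.84 when a tumor was left out. The intervals for Dmxl2 (-0.55 to 0.13), Dagla (-0.52 to 0.17), Tmem51 (-0.15 to 0.46) and Rbm3os (-0.95 to 0.31) included 0. The bexarotene tumors were those of the rule, so these are descriptions, and edgeR called 0 genes (0%) here, with 612 at an unadjusted p under 0.05 and 4 called by DESeq2.

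**Figure D4:**
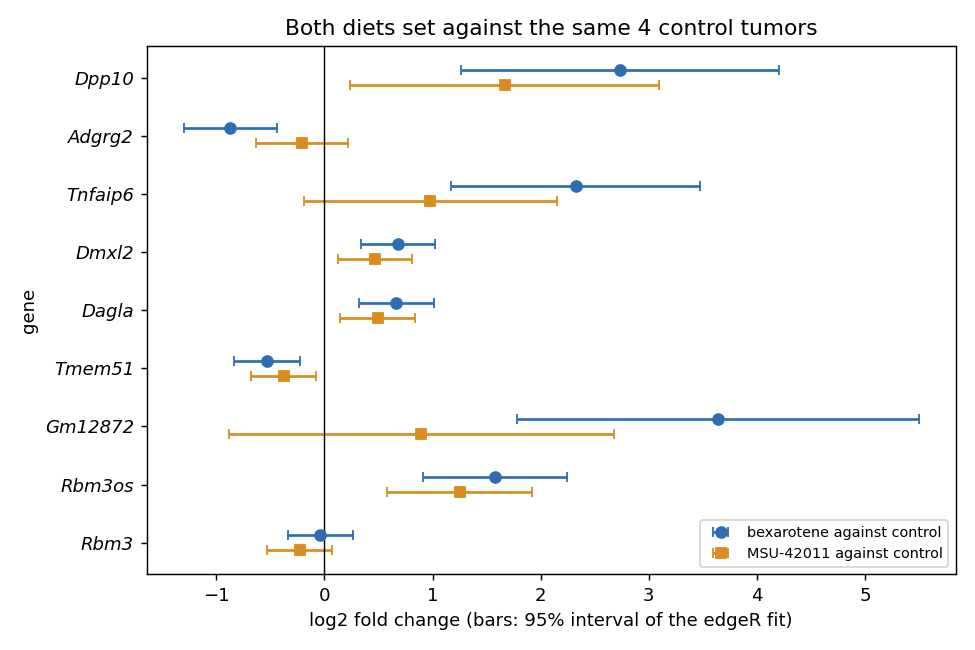
Log2 fold change (horizontal axis, with 95% intervals of the edgeR fit) of each of the 9 genes for bexarotene (circles) and MSU-42011 (squares) against the same 4 control tumors. The first 8 genes were chosen on the bexarotene contrast, so their distance from 0 there is a description. Their bexarotene values run from -0.87 to 3.64, and Rbm3 is at -0.04.

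The 9 genes did not follow a single ranking of the tumors. Within the bexarotene group, replicate 3 was lowest for 5 of them (Tnfaip6, Dmxl2, Gm12872, Rbm3os and Rbm3) and highest for 3 (Dpp10, Dagla and Tmem51). Within the MSU-42011 group, replicate 3 was lowest for 5 (Dpp10, Tnfaip6, Dmxl2, Gm12872 and Rbm3os) and highest for 3 (Adgrg2, Dagla and Tmem51). Relative spread also differed. In control tumors the coefficient of variation of normalized CPM was 78.1% for Gm12872 and 69.6% for Dpp10, and 10.1% for Dagla and 10.8% for Dmxl2. With bexarotene it was 5.81% for Adgrg2 and 6.56% for Dagla.

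On the per-length scale the genes were mostly low. The order given here holds for the lengths implied by the deposited FPKM and can change with the full exonic lengths. Control means ran from 0.198 FPKM for Tnfaip6 through 0.590 for Rbm3os, 0.685 for Dpp10, 2.20 for Dagla, 2.22 for Gm12872, 2.64 for Dmxl2, 5.27 for Adgrg2 and 13.6 for Tmem51 to 158 for Rbm3. Neighbours in this order that overlapped over control tumors were Rbm3os and Dpp10 (0.478 to 0.742 and 0.104 to 1.20), and Dagla, Gm12872 and Dmxl2 (2.03 to 2.61, 0.282 to 4.55 and 2.42 to 3.14).

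The chromosomal neighbourhood was followed through the nearest tested genes, 2 before and 2 after each of the 9. Leaving out Rbm3 and Rbm3os, which neighbour each other, these were 32 different genes. None had an unadjusted edgeR p under 0.05 for bexarotene or for MSU-42011 against control, and none separated bexarotene from control. Over all genes 4.48% were higher and 1.96% lower at that level with bexarotene, and 1.14% and 0.851% with MSU-42011. Separation of bexarotene from control held for 2.03% of all genes. At these shares few of 32 genes would be counted, so their absence says little. With bexarotene their log2 fold changes lay between -1.07 and 1.06, and the median was -0.03. The highest was Neb, the muscle protein nebulin, a neighbour of Tnfaip6 (1.06, SE 1.04). The lowest was Htr5b, a serotonin receptor gene and neighbour of Dpp10 (-1.07, SE 0.98). These neighbours were not always close. Distances were taken between the lower coordinates of the gene spans, whatever the strand, and not between transcription starts. They ran from 9043 bases (Tbc1d25 and Rbm3os) to 2239124 bases (Slc35f5 and Dpp10), with 1811629 bases between Htr5b and Dpp10.

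**Figure D5:**
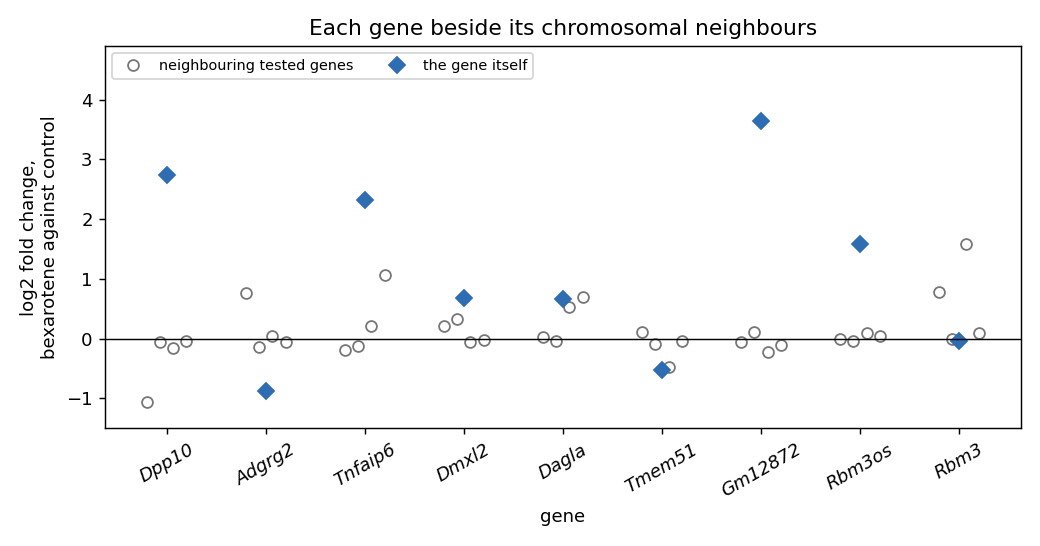
Log2 fold change with bexarotene against control (vertical axis) of each of the 9 genes (diamonds) and of the nearest tested genes on either side (open circles). The 32 neighbours lie between -1.07 and 1.06, and the high circle beside Rbm3 is Rbm3os at 1.58.

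Genes with the most similar profile were found by the root mean square difference of standardized log2 levels over the 12 tumors, where the median over all genes was between 1.38 and 1.44 for each of the 9. The closest gene has the smallest difference of all genes tested, so it must lie below that median, and likeness was not tested. Dmxl2 was closest to Ranbp6, an importin-related protein (0.356), and next to Rbm3os (0.469), whose own closest gene was Dmxl2. Both Dmxl2 and Rbm3os were chosen as higher in every bexarotene tumor than in any control. The measure includes those tumors, so their likeness follows in part from the choice. Gm12872 was closest to Sft2d1, a vesicle transport protein (0.367), and Tnfaip6 to C4a, a complement gene (0.460). Adgrg2 was closest to Zfp184, a zinc finger gene (0.479), Dagla to Il18, the cytokine interleukin-18 (0.497), and Dpp10 to Mknk1, a kinase that phosphorylates the cap-binding factor eIF4E (0.543). Rbm3 was closest to A430103D13Rik (0.508).

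The levels of some of these genes are given by group mean. Tgfb3, a growth factor that ranked 3 for Tmem51 (0.459), averaged 611 normalized CPM in control, 333 with MSU-42011 and 248 with bexarotene. Comp, a cartilage matrix protein that ranked 2 for Dagla (0.562), averaged 165, 469 and 944. Ranbp6 averaged 13.6, 18.3 and 18.8. These genes were picked for likeness to genes that separate the groups, so their own differences are descriptions.

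Targets of RXR partner receptors were the last list. Of 25, 20 were tested, with a median log2 fold change of 0.09 with bexarotene and 0.06 with MSU-42011. Scd2, a fatty acid desaturase, was the only one at an unadjusted edgeR p under 0.05 with bexarotene (0.67, SE 0.31). That is 1 of 20, near the 4.48% of all genes that were higher at that level. Scd1, the related desaturase, was at 0.97 (SE 0.53). Without bexarotene replicate 1, where 1.6% of all genes were higher and 1.75% lower at that level, 4 of the 20 were higher, Scd2 (0.91), Scd1 (1.25), Srebf1 (0.52), a transcription factor of lipid synthesis, and Lpcat3 (0.39), a phospholipid acyltransferase. Angptl4, an inhibitor of lipoprotein lipase, was then lower at -2.65. By edgeR 0 genes were called after adjustment in that setting, and these genes were named after their values were seen. With MSU-42011 none of the tested genes in any of these 7 lists had an unadjusted edgeR p under 0.05. Over all genes 1.14% were higher and 0.851% lower at that level.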

How the data were processed

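RNA-seq libraries of 12 mammary tumors were compared. Per the submitters' processing notes, the authors used STAR 2.6.1d, featureCounts 1.5.0-p3 and DESeq2. The authors deposited raw counts, with no normalization, and FPKM, in which each count is scaled by library total and gene length. The strand setting and genome build are not given in the sources used here, and gene coordinates equalled those of GENCODE M21 (GRCm38) for 53462 of 54409 genes (98.3%).

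The members and all gene lists were chosen with earlier results of these data known. Named genes were the members, the nearest 2 tested genes on each side, genes overlapping a member, the 3 genes of most similar profile (1 for Tmem51 is not reported here), up to 4 genes of each list with the lowest p, and the genes nearest the rule's edge. Abca7, Gm45902, Gm12876 and the genes named without bexarotene replicate 1 were added after their values were seen. Counts were filtered with edgeR's filterByExpr, scaled by TMM and tested with edgeR 4.0.16 (quasi-likelihood, 3 groups fitted together, Benjamini-Hochberg adjustment over 15504 genes, threshold 0.05). The method was tested on simulated data. DESeq2 1.42.0 and limma 3.58.1 on log2(FPKM + pseudocount) were alternatives. BLAST 2.17.0 searched for relatives of Gm12872. Promoter sequences came from RefSeq. Each group held 4 tumors from separate mice, and all deposited tumor columns were used. The authors' tables of fold changes and adjusted p-values were not used here. Counting intervals cover counting error only.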

Additional observations from a re-analysis of the deposited data

Results flagged for a closer look

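In groups of 4 tumors, a tumor was picked out where its gap to the nearest other exceeded Dixon's 95% critical value as a share of the group's range, which chance gives in about 1 of 20 groups. Of 66 groups looked at, over the members and the marker lists, 9 had such a tumor, mostly bexarotene replicate 1. That tumor held Tnfaip6 at 3.284 normalized CPM (the other bexarotene tumors 1.114 to 1.383), and its summed markers were at 11900 normalized CPM for fibroblasts (170.8 to 977.9), 1625 for macrophages (221 to 378.5), 570.9 for endothelium (157.2 to 170.5) and 648.5 for smooth muscle and pericytes (137.1 to 178.1). Its adipocyte markers summed to 103.3 (16.56 to 22.8) and its skeletal muscle markers to 251.4 (2.051 to 2.268). The part of these markers in the Tnfaip6 level was not tested. Among control tumors, replicate 1 held skeletal muscle markers at 120.8 (1.657 to 3.645), and among MSU-42011 tumors, replicate 3 held T cell markers at 12.03 (6.035 to 6.874).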

How the results depend on the processing

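The rule fixed the direction of the 8 separating genes, so their direction says nothing of stability. Tnfaip6, Gm12872 and Rbm3os could not be tested with at least 10 counts required in every tumor. DESeq2 called 6 genes for bexarotene against control, with or without its Cook's distance filter, 1 for MSU-42011 against control either way, and 4 with and 23 without the filter for MSU-42011 against bexarotene. Leaving out a tumor gave 0 to 1 called genes for bexarotene against control (1 without MSU-42011 replicate 2). Genes without overlap numbered 479, 469 and 310 with no filter on low counts for bexarotene against control, MSU-42011 against control and MSU-42011 against bexarotene. Leaving out a tumor, which by construction makes overlap rarer, gave 328 to 1064 (most without bexarotene replicate 3), 305 to 1308 and 190 to 886 (most without MSU-42011 replicate 2 in both). The log2 fold change of Rbm3 with bexarotene ran from -0.14 to 0.04 when a tumor was left out, turning above 0 without control replicate 1 (0.0035) or 4 (0.015), or without bexarotene replicate 3 (0.042) or 4 (0.00069). With the replicate block edgeR called 0 genes in each comparison, and Rbm3 was at -0.03. Same-numbered tumors had correlations of -0.352 to 0.349, so the numbers were not taken as a pairing, and the block changed no call. Scaling by DESeq2's size factors, limma on FPKM and the fit of only the compared groups left 0 genes called. With limma on log2(FPKM + 1), a pseudocount that shrinks the change of low genes, the log2 fold change with bexarotene was 1.75 for Dpp10, 0.72 for Tnfaip6 and 0.84 for Rbm3os. Tnfaip6, Rbm3os and Gm12872 rest on few control counts (28, 30 and 55), which limits their fold changes.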
